A study of Homo sapiens with 17 samples.

Results

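A set of 18 protein-coding genes that were lower with RAS activated in IMR90 ER:RAS fibroblasts, and less so with SMARCA4 knocked down, is described here. They were chosen by their levels in CPM, the count of a gene for every 1000000 gene counts of its library. A gene was taken when its mean was at least 1 CPM in the DMSO siNT group, at most 25% of that mean in the 4OHT siNT group, and at least 2 times the 4OHT siNT mean plus 0.05 CPM in the 4OHT siSMARCA4 group, with collagen (COL) and HOX genes set aside. Of 20046 protein-coding genes in the tables, 12580 reached 1 CPM in DMSO, 623 of these were at 25% or less in 4OHT siNT, and 18 also passed the rise. The exclusion by name removed 0 genes. The levels in the 3 groups therefore selected the genes, and they are given below as a description without a test. All 18 passed the filter on low counts of the model.

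IMR90 ER:RAS are human foetal lung fibroblasts in which RAS activity depends on a drug. 4-Hydroxytamoxifen (4OHT) activates a RAS fusion protein, ER:RAS, and the cells enter oncogene-induced senescence, whereas cells in the vehicle DMSO keep proliferating. RNA was taken at day 7 from cells that had received siRNA the day before treatment, either non-targeting (siNT) or against SMARCA4 (siSMARCA4). There were 5 libraries of DMSO siNT, 6 of 4OHT siNT and 6 of 4OHT siSMARCA4, all from this 1 line, and no library combined DMSO with siSMARCA4. Each label carried an siRNA number, 2 or 4, and a tag, V or VM, left unexplained there. The number follows siNT or siSMARCA4, and nothing in the labels says that it stands for something both share. A difference by number may therefore also come from the siNT libraries. Libraries are named here by number, replicate and tag, such as 4-2V. The VM tag was on all 6 libraries of 4OHT siNT, on 3 of 6 of siSMARCA4 and on 3 of 5 of DMSO, and both V libraries in DMSO had number 2. Nothing in the labels says whether libraries came from separate cultures, so p-values measure the spread between these libraries.

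Senescence is a stable exit from the cell cycle, in which genes of DNA replication and mitosis are shut down, many of them through the DREAM complex and RB family proteins acting at promoter elements that include the cell cycle genes homology region. SMARCA4 (BRG1) is an ATPase of the SWI/SNF complexes, which slide or evict nucleosomes and can both open and close promoters. Genes lower in senescence and higher with SMARCA4 loss were examined to see which genes follow that pattern and how near to DMSO they stand.

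The 18 genes were drawn from several roles. CDK1, NDC80, DEPDC1, DEPDC1B and PCLAF are cell-cycle genes. CLDN11, SLC7A14, GPRC5A, TRPC4, CHL1 and MALL encode membrane proteins. TNFAIP8 and CARD16 encode regulators of apoptosis or inflammatory signalling. IMPA2, GCNT4 and USP2 encode enzymes. FAM131C has no role named here, and ENSG00000285218 is a readthrough model that starts at the first base of CLDN11. The genes lay on 10 chromosomes, and CLDN11, ENSG00000285218 and SLC7A14 adjoined or overlapped each other on chromosome 3.

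The promoters of the 4 cell-cycle genes that hold the letters TTTGAA on either strand are printed first, to show where these letters lie, followed by that of CLDN11, the most highly expressed of the set. Each window covers 250 bases before to 50 after the RefSeq start on GRCh38.p14, read along the gene's own strand. Capitals mark the TTTGAA element and the CCAAT box, read on either strand. The windows are chr10:60778081-60778380 (+) for CDK1, chr18:2571307-2571606 (+) for NDC80, chr1:68497033-68497332 (-) for DEPDC1, chr5:60700117-60700416 (-) for DEPDC1B and chr3:170418618-170418917 (+) for CLDN11.
CDK1: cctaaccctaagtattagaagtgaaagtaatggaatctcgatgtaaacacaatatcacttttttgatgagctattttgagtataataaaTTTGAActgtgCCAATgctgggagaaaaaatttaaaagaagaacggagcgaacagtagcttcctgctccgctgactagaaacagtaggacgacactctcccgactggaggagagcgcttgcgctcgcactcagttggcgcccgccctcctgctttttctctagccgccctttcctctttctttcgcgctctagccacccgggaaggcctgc
NDC80: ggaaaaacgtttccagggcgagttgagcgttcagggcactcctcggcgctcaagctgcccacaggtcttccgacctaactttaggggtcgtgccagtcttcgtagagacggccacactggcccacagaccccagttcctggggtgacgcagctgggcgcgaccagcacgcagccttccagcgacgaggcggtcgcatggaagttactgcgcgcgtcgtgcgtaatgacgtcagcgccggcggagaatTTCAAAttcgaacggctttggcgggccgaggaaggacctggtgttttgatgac
DEPDC1: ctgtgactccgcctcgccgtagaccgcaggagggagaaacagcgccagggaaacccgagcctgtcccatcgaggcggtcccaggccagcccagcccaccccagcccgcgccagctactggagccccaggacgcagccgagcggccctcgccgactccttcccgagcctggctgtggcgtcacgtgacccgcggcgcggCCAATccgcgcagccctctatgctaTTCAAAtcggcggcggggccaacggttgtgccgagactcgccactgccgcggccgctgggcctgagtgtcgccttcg
DEPDC1B: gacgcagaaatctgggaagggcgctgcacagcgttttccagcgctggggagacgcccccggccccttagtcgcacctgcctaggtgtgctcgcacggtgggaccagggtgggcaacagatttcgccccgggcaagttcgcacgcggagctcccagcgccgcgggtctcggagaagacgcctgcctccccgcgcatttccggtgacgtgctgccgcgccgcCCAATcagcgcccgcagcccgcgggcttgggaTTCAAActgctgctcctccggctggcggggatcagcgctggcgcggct
CLDN11: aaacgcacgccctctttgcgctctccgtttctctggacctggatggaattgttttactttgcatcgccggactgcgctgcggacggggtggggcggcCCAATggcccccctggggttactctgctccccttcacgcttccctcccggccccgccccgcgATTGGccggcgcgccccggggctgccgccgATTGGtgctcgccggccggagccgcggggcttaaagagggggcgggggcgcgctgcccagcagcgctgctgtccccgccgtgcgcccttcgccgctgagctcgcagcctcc

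Windows were found in RefSeq for 14 of the 18 genes, and none for ENSG00000285218, GPRC5A, CARD16 or IMPA2. TTTGAA, the core of the cell cycle genes homology region, was in 4 of 14 windows (28.6%), against 15.2% of 35116 windows of all genes. It was held by CDK1, NDC80, DEPDC1 and DEPDC1B and not by the fifth cell-cycle gene, PCLAF. Its first base lay 2 bases after the start in DEPDC1B and 3, 27 and 161 bases before it in NDC80, DEPDC1 and CDK1. The RefSeq start lies 139 bases inside the gene's annotated 5′ end in DEPDC1 and 24 bases inside it in DEPDC1B, so from those ends the letters lie within both genes. The start differs by 17503 bases in USP2 and by 30 to 200 bases in TRPC4, TNFAIP8 and MALL. CCAAT was in 5 of 14 windows (35.7%), against 34.6% of all windows: CDK1, DEPDC1, DEPDC1B, SLC7A14 and CLDN11, the last of which held it 3 times. CDK1, DEPDC1 and DEPDC1B held both sets of letters, as did 5.90% of all windows. The E-box letters CANNTG were in 8 of 14 windows (57.1%), all 5 cell-cycle genes included, against 68.7% of all. The TATA box letters TATAAA were in 0 of 14 windows, against 11.5% of all. The AP-1 letters TGANTCA were in 0, against 7.71%. The TEAD letters GGAATG were in 0, against 14.0%, and the CArG box was in 0, against 1.29%. GC content had a median of 67.3% over the 14 windows, from 47.7% in CDK1 to 82.7% in USP2, and of 58.7% over all windows. The 35116 windows were not limited to protein-coding genes at 1 CPM or more in DMSO, as the set was. The shares therefore do not compare like with like. These are matches of letters and do not show that a factor binds.

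SMARCA4, the siRNA target, was lowest where the labels name the knockdown. Its level was 210 ± 17.4 CPM (SD, n = 5) in DMSO siNT, 263 ± 10.6 CPM (n = 6) in 4OHT siNT and 89.0 ± 22.5 CPM (n = 6) in 4OHT siSMARCA4. The knockdown and siNT ranges did not overlap, a log2 difference of -1.59 (SE 0.13, edgeR adjusted p 6.10e-07). Libraries held 38.6 to 67.8 M gene counts (M, 1000000). All 9 fibroblast markers were at 1 CPM or more in each group, and their summed level was 24213 to 28866 CPM in DMSO, 13427 to 16997 CPM in 4OHT siNT and 7723 to 11053 CPM in siSMARCA4. COL1A1, COL1A2 and VIM held most of this sum. In the same order COL1A1 was 11440, 6175 and 2317 CPM, and VIM 6333, 5856 and 5786 CPM. With siSMARCA4 against siNT 6 of the 9 were lower and 0 higher (edgeR, adjusted p under 0.05). The range of the summed level, in the same order, was 112 to 156, 66.1 to 84.6 and 37.2 to 60.97 CPM for 7 epithelial markers, 3.53 to 11.7, 9.90 to 15.01 and 7.87 to 11.4 CPM for 6 endothelial, 22.1 to 27.4, 22.2 to 29.2 and 20.8 to 30.8 CPM for 7 leukocyte, and 12.5 to 23.4, 11.4 to 16.8 and 2.81 to 8.31 CPM for 6 neural markers. The keratins KRT8, KRT18 and KRT19 held most of the epithelial sum and CD68 most of the leukocyte sum, and EPCAM was at 0.928 CPM in DMSO. CDH5, CD3E, SOX10 and ESRP1 had a mean of 0 CPM in DMSO. In bulk RNA, fewer cells that express a gene and less RNA per cell cannot be told apart, and the part of other cells in the results was not tested.

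**Figure D1:**
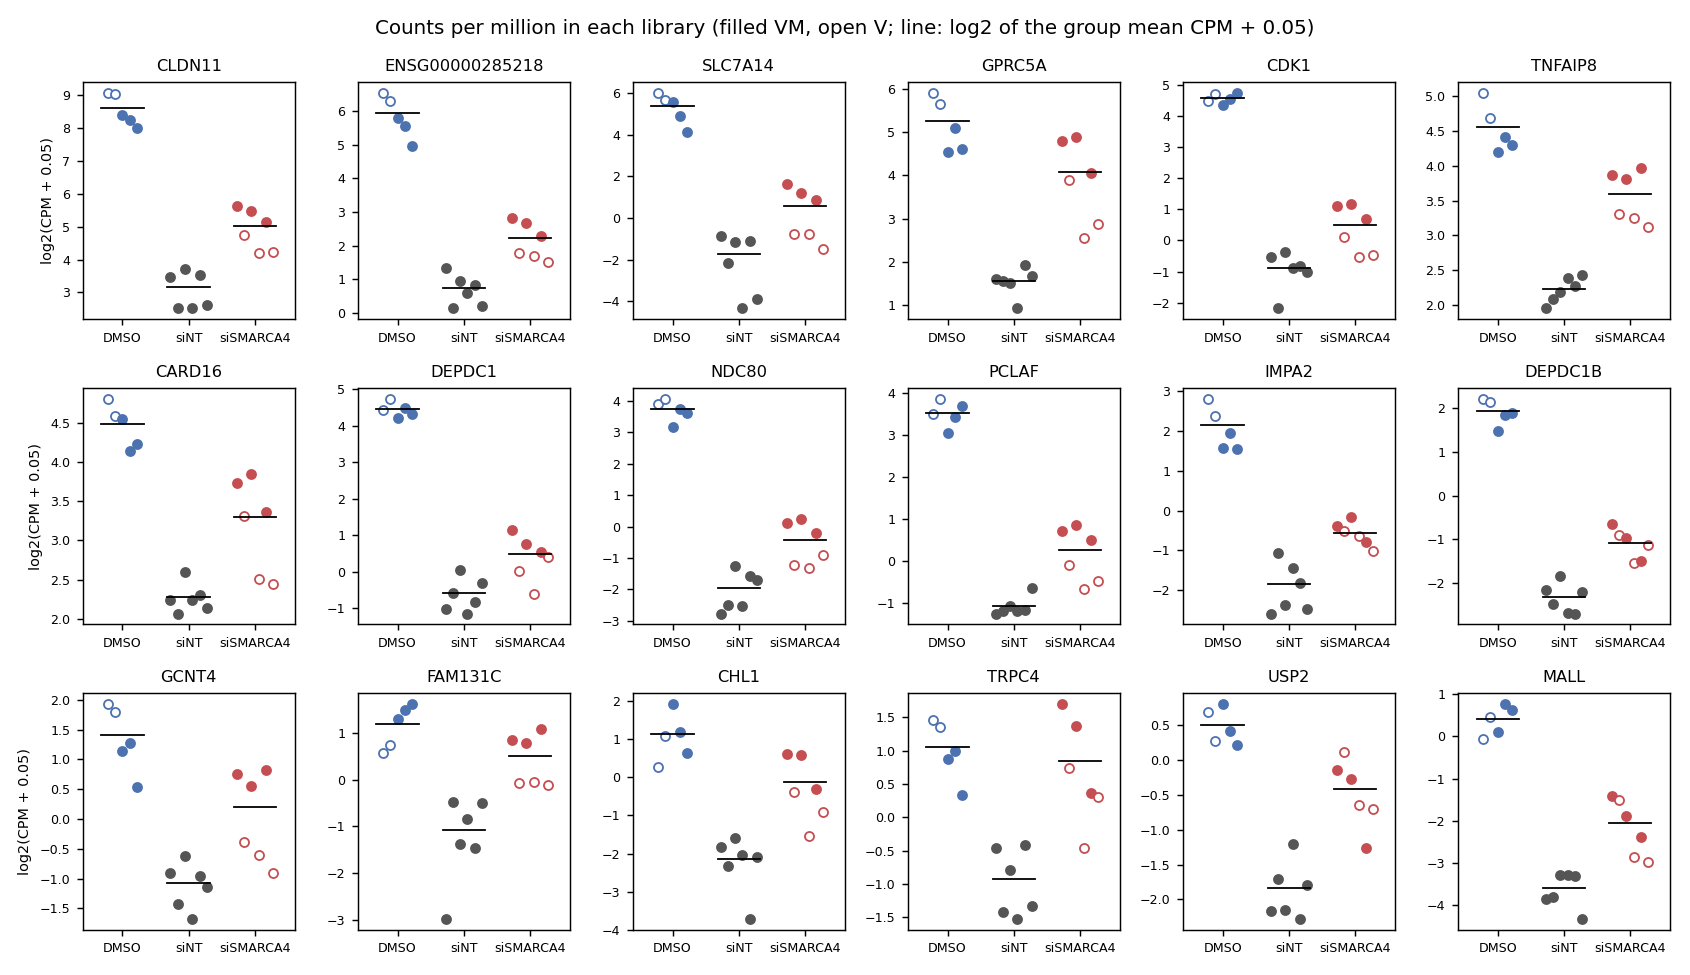
Level of each of the 18 genes in each of the 17 libraries, as log2(CPM + 0.05). Points are libraries (filled VM, open V), and lines are the group means. For every gene the 5 DMSO libraries lie above the 6 siNT libraries, and in siSMARCA4 the filled points tend to lie above the open ones.

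How near to the DMSO level the genes stood with the knockdown differed widely. The siRNA came before 4OHT and RNA was taken only at day 7, so a smaller fall and a recovery cannot be told apart. In 4OHT siNT they were left at 0.603% (SLC7A14) to 23.5% (TRPC4) of the DMSO mean, with a median of 4.60%. In 4OHT siSMARCA4 they stood at 3.39% (SLC7A14) to 85.9% (TRPC4), with a median of 14.8%, and 0 of 18 reached the DMSO mean. These means pool V and VM libraries in unequal shares. Within the VM libraries TRPC4 stood at 141%, GPRC5A at 90.6% and SLC7A14 at 7.54% of DMSO. There TRPC4 was at 29.1% of DMSO in siNT, above the 25% that the rule allows. On the pooled means 10 genes stood under 16% of DMSO: CLDN11, ENSG00000285218, SLC7A14, the 5 cell-cycle genes, IMPA2 and MALL. The other 8 stood at 40.2% or more: CHL1, GCNT4, CARD16, GPRC5A, TNFAIP8, USP2, FAM131C and TRPC4. Within VM IMPA2 and MALL were above 16%, at 21.5% and 16.6%. The mean in siSMARCA4 was 2.04 (CARD16) to 5.85 (GPRC5A) times that in siNT, with a median of 2.92. The percent of DMSO also depends on the depth of the fall: MALL and SLC7A14, both under 16%, stood at 5.83 and 5.62 times siNT. Every siSMARCA4 library lay above every siNT library for 9 of 18 genes, which the rule favours, and for 5.77% of all 19473 genes tested. Every DMSO library lay above every siNT library for all 18, which the rule also favours, against 24% of genes tested. The DMSO libraries all lay above every siSMARCA4 library for 13 of 18 genes, against 21.8%. The 5 that overlapped DMSO were GPRC5A, GCNT4, FAM131C, CHL1 and TRPC4.

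**Figure D2:**
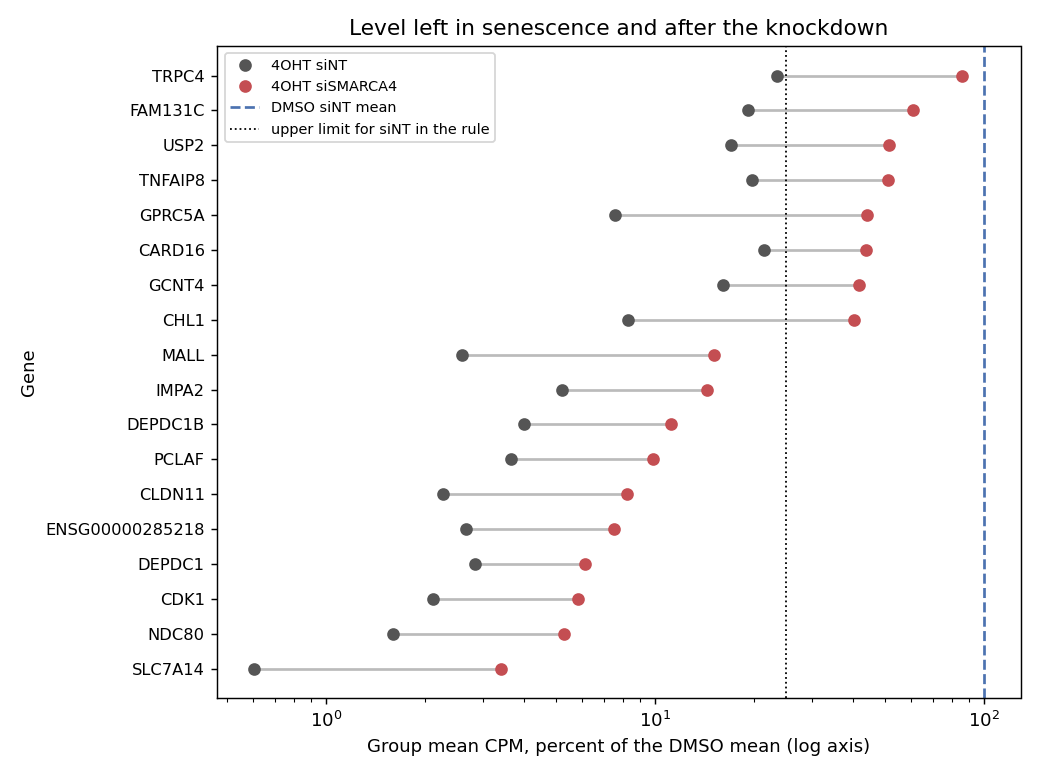
Mean CPM of each gene in 4OHT siNT (grey) and 4OHT siSMARCA4 (red) as a percent of its DMSO mean, on a log axis. The dotted line is the 25% that the rule allows in siNT and the dashed line is the DMSO mean. On these means, which pool V and VM libraries, 10 genes stand under 16% with the knockdown and 8 between 40.2% and 85.9%.

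The highest levels were at the CLDN11 locus on chromosome 3. CLDN11 (ENSG00000013297; GRCh38 chr3:170418868-170454733, plus strand) encodes a claudin, a tight junction protein best known from myelin and the testis. Its 5 DMSO libraries held 536, 526, 336, 306 and 258 CPM. The 6 siNT libraries ranged from 5.69 to 13.1 CPM with a median of 8.62, and the 6 siSMARCA4 libraries from 18.2 to 49.2 CPM with a median of 31.3. The 3 groups did not overlap, and the siSMARCA4 mean of 32.2 ± 13.1 CPM (SD, n = 6) was 8.20% of the DMSO mean of 392 ± 130 CPM (n = 5). Per kilobase of exon, CLDN11 was the highest of the set in DMSO, at 90.8 CPM per kb, and in siSMARCA4, at 7.44 CPM per kb. In siNT, CARD16 was higher, at 2.91 against 2.06 CPM per kb.

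ENSG00000285218 (chr3:170418868-170860380, plus strand) begins at the same base as CLDN11 and runs past SLC7A14, so that it shares reads with CLDN11 and its value is uncertain. Its 5 DMSO libraries held 92.2, 78.5, 55.7, 47.2 and 31.2 CPM, the siNT libraries 1.05 to 2.47 CPM with a median of 1.60, and the siSMARCA4 libraries 2.80 to 6.97 CPM with a median of 4.09. The groups did not overlap. SLC7A14 (chr3:170459548-170586075, minus strand) encodes a lysosomal membrane protein of the cationic amino acid transporter family. Its DMSO libraries held 63.6, 51.2, 47.5, 29.5 and 17.1 CPM and its siNT libraries 0 to 0.501 CPM with a median of 0.289. The library at 0 held 0 counts, which allows up to 0.0524 CPM. The siSMARCA4 libraries ranged from 0.311 to 3.06 CPM with a median of 1.16, and the lowest overlapped siNT. SLC7A14 was the lowest of the set as a percent of DMSO, at 0.603% in siNT and 3.39% in siSMARCA4. Its siSMARCA4 mean was 5.62 times its siNT mean, above the median of 2.92 over the set.

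The 5 cell-cycle genes stood at 5.28% (NDC80) to 11.2% (DEPDC1B) of DMSO after the knockdown. CDK1 (chr10:60778331-60794852, plus strand) is the kinase that drives entry into mitosis. Its DMSO libraries held 22.0, 25.8, 20.2, 23.3 and 26.5 CPM, the siNT libraries 0.172 to 0.722 CPM with a median of 0.504, and the siSMARCA4 libraries 0.635 to 2.21 CPM with a median of 1.30. The siSMARCA4 and siNT libraries overlapped, and all were far under DMSO. NDC80 (chr18:2571557-2616635, plus strand) is the kinetochore subunit that grips microtubules. In DMSO the libraries held 14.9, 16.8, 8.92, 13.2 and 12.1 CPM, the siNT libraries 0.0964 to 0.370 CPM with a median of 0.193, and the siSMARCA4 libraries 0.354 to 1.14 CPM with a median of 0.649. The lowest siSMARCA4 library lay just under the highest siNT library.

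DEPDC1 (chr1:68474152-68497221, minus strand) encodes a DEP domain protein expressed in dividing cells, and its 0.605 to 2.18 CPM in siSMARCA4 (median 1.34) stood beside 0.402 to 0.987 CPM in siNT (median 0.571). In DMSO it was at 21.6, 26.9, 18.7, 22.4 and 20.1 CPM. Its paralog DEPDC1B (chr5:60596912-60700190, minus strand), which couples cell detachment to mitotic entry, was at 0.295 to 0.591 CPM in siSMARCA4 (median 0.433) and 0.104 to 0.229 CPM in siNT (median 0.147), without overlap. The DMSO libraries held 4.62, 4.40, 2.73, 3.53 and 3.66 CPM. PCLAF (chr15:64364304-64387687, minus strand), a small protein that binds the replication clamp PCNA, was at 0.576 to 1.75 CPM in siSMARCA4 (median 1.12) and 0.366 to 0.588 CPM in siNT (median 0.388), with an overlap of the lowest and the highest library. In DMSO it stood at 11.3, 14.6, 8.30, 10.8 and 12.8 CPM. The summed level of the 5 genes was 1.94% to 3.69% of the DMSO mean in the siNT libraries and 3.33% to 10.1% in the siSMARCA4 libraries.

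The wider cell-cycle programme was read from a list of 30 replication and mitosis genes, of which CDK1 is the only member chosen here. All 29 others fell in 4OHT siNT against DMSO (edgeR, adjusted p under 0.05), where 27.3% of all genes tested fell, with a median log2 difference of -3.23 beside 0.01 over all genes. In siSMARCA4 against siNT, 5 of the 29 rose and 3 fell, where 11.1% of all genes tested rose and 13.2% fell, and the median was 0.09 beside -0.01. The fitted value was positive for 18 and negative for 11. The summed CPM of the 29 genes was 19.5% to 22.9% of the DMSO mean in the siNT libraries and 19.0% to 23.1% in the siSMARCA4 libraries, which overlapped. Within siSMARCA4 it was 21.1% to 23.1% in VM and 19.0% to 19.9% in V. Genes of high level weigh most in this sum, such as PCNA at 60.96 CPM in siNT. The 5 that rose were RRM2, BUB1, AURKB, TOP2A and CDC6. RRM2, a subunit of ribonucleotide reductase, was 78.6 ± 15.8 CPM (SD, n = 5) in DMSO, 4.62 ± 0.663 (n = 6) in siNT and 8.94 ± 2.15 (n = 6) in siSMARCA4, a log2 difference of 0.92 (SE 0.15, adjusted p 3.71e-04). BUB1, a spindle checkpoint kinase, rose from 0.515 ± 0.107 to 0.945 ± 0.279 CPM (0.84, SE 0.21, adjusted p 0.00727). MCM3, CDT1 and AURKA fell, MCM3 from 13.9 ± 2.37 to 9.76 ± 1.47 CPM (-0.54, SE 0.12, adjusted p 0.00276). MKI67, a common marker of proliferating cells, was 0.866 ± 0.266 CPM in siNT and 1.27 ± 0.523 CPM in siSMARCA4 (0.50, SE 0.32, adjusted p 0.268).

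**Figure D3:**
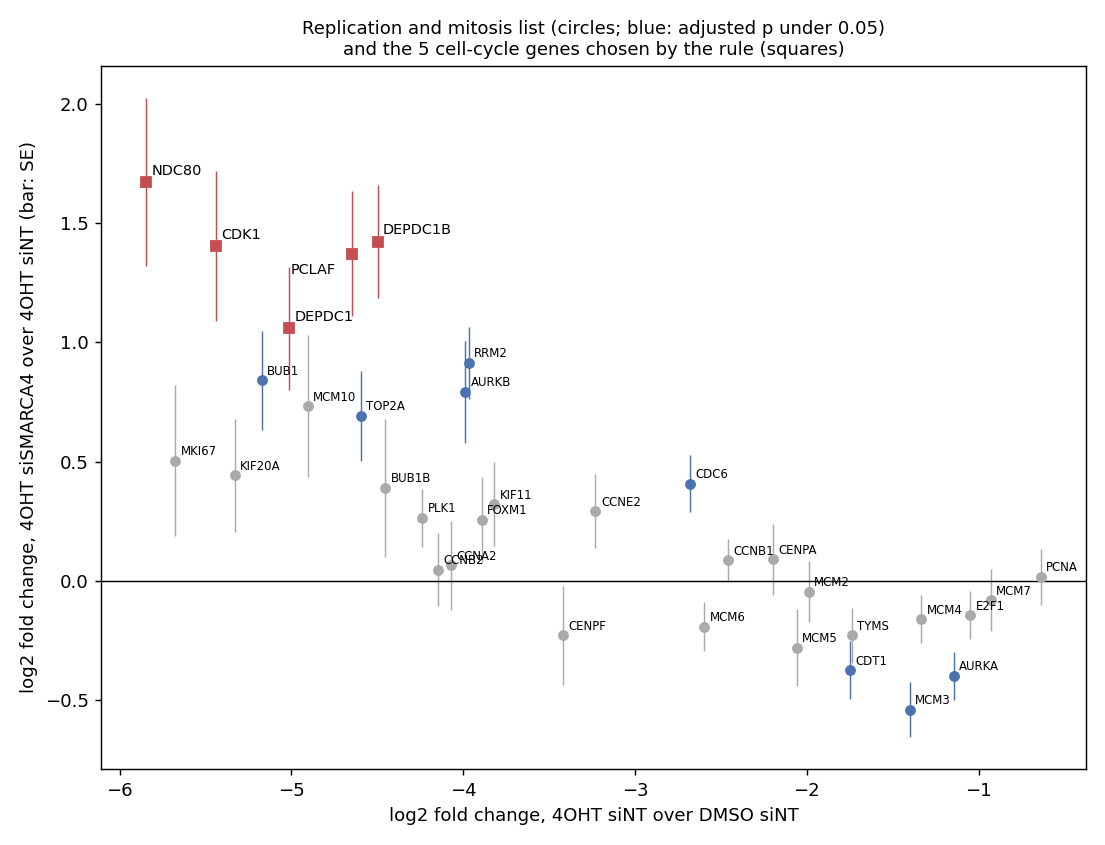
Log2 fold change in senescence (4OHT siNT over DMSO siNT, horizontal) and with the knockdown (siSMARCA4 over siNT within 4OHT, vertical; bars are SE). Circles are the 29 other genes of the replication and mitosis list, blue where the knockdown difference had an edgeR adjusted p under 0.05 (5 higher, 3 lower), and squares are the 5 cell-cycle genes, which the rule chose for their vertical position. The horizontal and vertical values share the siNT libraries.

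The receptor GPRC5A, the channel TRPC4 and the adhesion molecule CHL1 stood nearer to DMSO, at 40.2% or more. GPRC5A (chr12:12891559-12917937, plus strand) is a retinoic acid-induced orphan G protein-coupled receptor, abundant in lung epithelium. Its DMSO libraries held 59.9, 50.2, 23.1, 34.2 and 24.3 CPM, the siNT libraries 1.85 to 3.73 CPM with a median of 2.94, and the siSMARCA4 libraries 5.84 to 29.6 CPM with a median of 15.6. The siSMARCA4 libraries were all above siNT, and the highest overlapped DMSO. GPRC5A had the largest ratio of siSMARCA4 to siNT of the set, 5.85.

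TRPC4 (chr13:37632063-37869802, minus strand), a calcium-permeable cation channel, was closest to its DMSO level on means over all libraries. Within VM GPRC5A was closer, at 90.6%, and TRPC4 stood at 141%. The DMSO libraries of TRPC4 held 2.71, 2.52, 1.78, 1.95 and 1.21 CPM, the siNT libraries 0.297 to 0.700 CPM with a median of 0.439, and the siSMARCA4 libraries 0.679 to 3.20 CPM with a median of 1.43. The siSMARCA4 libraries spanned from the siNT range to above the highest DMSO library. CHL1 (chr3:196763-409417, plus strand), an adhesion molecule of the L1 family, was at 0.0259 to 0.282 CPM in siNT and 0.295 to 1.47 CPM in siSMARCA4, without overlap, and its DMSO libraries held 1.16, 2.08, 3.73, 2.21 and 1.52 CPM. MALL (chr2:110083870-110116022, minus strand), a MAL family protein of membrane rafts, had 10 counts over all 6 siNT libraries, 60 over siSMARCA4 and 331 over DMSO. Its levels were 0 to 0.0529 CPM in siNT, where the library at 0 allows up to 0.0551 CPM, 0.0777 to 0.326 CPM in siSMARCA4 and 0.898 to 1.64 CPM in DMSO, without overlap.

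TNFAIP8 (chr5:119268692-119399688, plus strand), a TNF-induced inhibitor of apoptosis, was at 32.8, 25.6, 18.2, 21.3 and 19.6 CPM in DMSO, 3.84 to 5.36 CPM in siNT with a median of 4.65, and 8.62 to 15.5 CPM in siSMARCA4 with a median of 11.9. The 3 groups did not overlap. CARD16 (chr11:105041326-105101431, minus strand) encodes a CARD-only protein that binds caspase-1 and is a near copy of the start of its neighbour CASP1, so that reads may be split between them. It was at 27.9, 24.0, 23.4, 17.6 and 18.7 CPM in DMSO, 4.15 to 6.01 CPM in siNT with a median of 4.68, and 5.38 to 14.4 CPM in siSMARCA4 with a median of 10.1, and 2 of the 6 siSMARCA4 libraries lay within the siNT range.

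Among the enzymes, IMPA2 (chr18:11981025-12030877, plus strand), an inositol monophosphatase, was at 6.9996, 5.15, 2.92, 3.83 and 2.90 CPM in DMSO, 0.116 to 0.430 CPM in siNT and 0.447 to 0.836 CPM in siSMARCA4, without overlap. GCNT4 (chr5:75025346-75052558, minus strand), a glycosyltransferase that branches O-glycans, was at 3.76, 3.44, 2.15, 2.37 and 1.40 CPM in DMSO, 0.262 to 0.599 CPM in siNT and 0.485 to 1.73 CPM in siSMARCA4. USP2 (chr11:119355215-119381711, minus strand), a deubiquitinase, was at 1.55, 1.16, 1.69, 1.28 and 1.11 CPM in DMSO, 0.156 to 0.384 CPM in siNT and 0.366 to 1.03 CPM in siSMARCA4. The lowest siSMARCA4 library overlapped siNT in the last 2. FAM131C (chr1:16057769-16073651, minus strand), which has a pseudogene copy 17740 bases away, was at 1.42, 1.62, 2.38, 2.74 and 3.00 CPM in DMSO, 0.0772 to 0.666 CPM in siNT and 0.874 to 2.07 CPM in siSMARCA4. Its siSMARCA4 libraries were all above siNT.

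The edges of the rule were set by neighbours on each side. DEPDC1, CARD16 and DEPDC1B were just inside the rise, at 2.006, 2.017 and 2.111 times, and TMEM200B, CENPM and the Wnt inhibitor DKK1 just outside it, at 2.00, 1.94 and 1.94 times (TMEM200B is under 2 before rounding). TRPC4, CARD16 and TNFAIP8 were just inside the fall, and PLSCR4, PLPPR3 and PCDHB10 just outside it, with siNT at 0.258, 0.259 and 0.262 of DMSO. PLSCR4 was 4.13 CPM in DMSO, 1.07 in siNT and 7.27 in siSMARCA4, and PLPPR3 was 5.36, 1.39 and 6.86 CPM, so that both stood above their DMSO mean. MALL, USP2 and TRPC4 were just inside the level of 1 CPM in DMSO, and GRTP1, EVI2A and ANXA10 were outside at 0.854, 0.455 and 0.257 CPM.

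The siSMARCA4 libraries differed among themselves by tag. The rule used the mean of these same V and VM libraries, so the difference is given as a description, without a test of the 18 genes. On the V libraries alone 12 of the 18 genes would have missed the required rise over siNT, and on the VM libraries alone 0, so that those 12 were chosen through their VM libraries. The fitted V minus VM difference was negative in 17 of 18, with a median of -0.98 on the log2 scale beside 0.02 over all genes. It ran from -2.29 (SE 0.56) in SLC7A14 to 0.16 (SE 0.36) in USP2, with GPRC5A at -1.38 (SE 0.30), GCNT4 at -1.37 (SE 0.27), CDK1 at -1.30 (SE 0.29), CLDN11 at -0.99 (SE 0.27) and TNFAIP8 at -0.63 (SE 0.13). All 3 VM libraries lay above all 3 V libraries for 13 of 18 genes. Over all genes tested 12.9% did so, a share that cannot be compared with that of genes chosen in this way.

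In levels, GPRC5A was 24.6 ± 7.14 CPM in VM and 9.28 ± 4.77 CPM in V (SD, n = 3 each), SLC7A14 2.37 ± 0.649 and 0.467 ± 0.135 CPM, GCNT4 1.59 ± 0.161 and 0.601 ± 0.113 CPM, and CDK1 1.96 ± 0.345 and 0.782 ± 0.217 CPM. SMARCA4, which the rule did not use, was lower in VM. It was 73.4 ± 5.57 CPM in the 3 VM and 105 ± 22.3 CPM in the 3 V libraries of siSMARCA4, without overlap, and 0.54 higher in V on the log2 scale (SE 0.12, adjusted p 0.0197). Of the 3 V libraries 2 had siRNA number 4, and of the 3 VM libraries 2 had number 2. By label 2-3V and 2-3VM share number and replicate, as do 4-2V and 4-2VM, and in DMSO 2-2V and 2-2VM. The fits by tag treated these libraries as unpaired. The part of remaining SMARCA4, of the siRNA number and of what the tag stands for in the difference by tag was not tested.

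Among the 29 other replication and mitosis genes, which the rule did not choose, 4 were lower in V (CCNA2, BUB1B, AURKB and TOP2A; edgeR, adjusted p under 0.05) and MCM4 was higher, beside 1.42% lower and 2.45% higher of all 19473 genes tested. The fitted value was negative in 24 of the 29, with a median of -0.26 beside 0.02 over all genes.

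**Figure D4:**
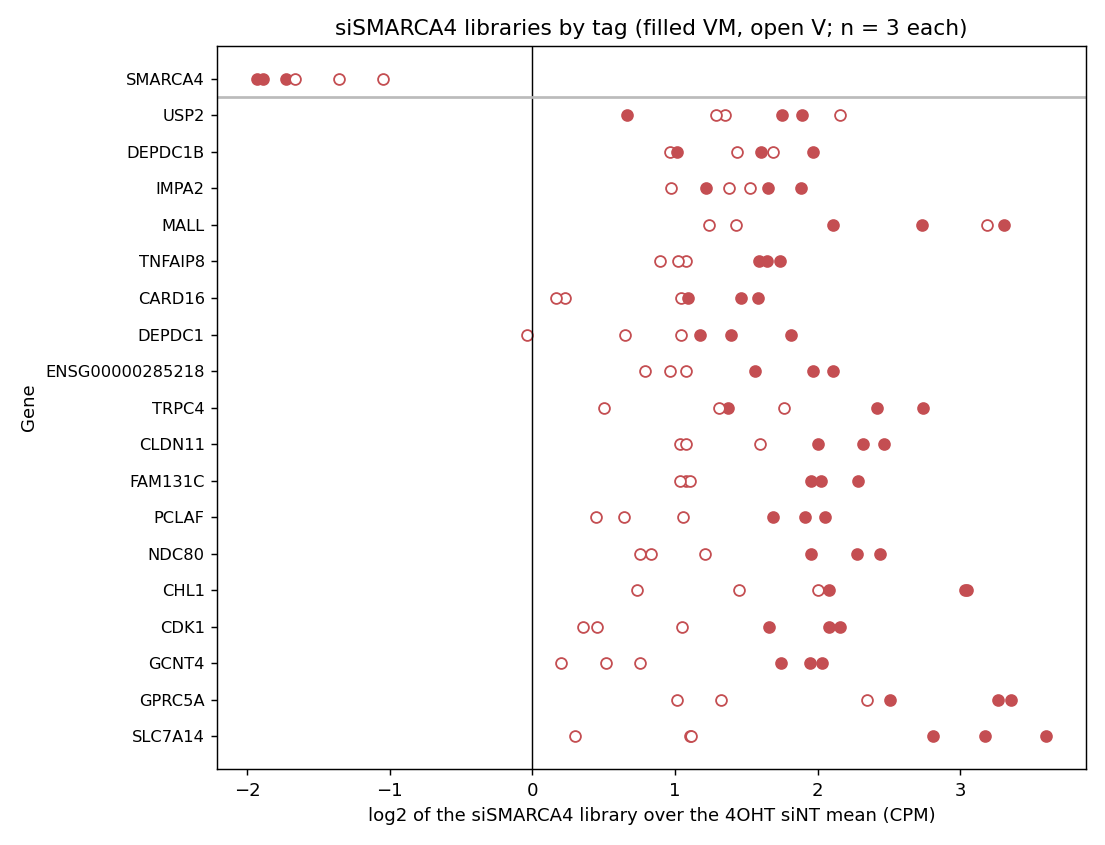
Each siSMARCA4 library as the log2 of its CPM over the 4OHT siNT mean, for the 18 genes and for SMARCA4 (top). Filled points are VM and open points V libraries (n = 3 each), with genes ordered by the fitted difference. For 13 genes all filled points lie to the right of the open ones, and for SMARCA4 they lie to the left.

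Since every siNT library was VM, levels within VM alone compare libraries of the same tag. The tag still enters through the choice of genes, since 12 of the 18 were chosen through their VM libraries. Within VM the siSMARCA4 mean was 2.62 (CARD16) to 9.39 (SLC7A14) times the siNT mean, with a median of 3.85, values that this choice favours. For 17 of 18 genes, all but USP2, all 3 siSMARCA4 libraries lay above all 6 siNT libraries. Over all genes tested 18.8% did so, a share that cannot be compared with that of genes chosen in this way. The V libraries against the same siNT libraries gave 1.42 (GCNT4) to 4.71 (MALL) times, with a median of 2.05. They lay above siNT for 10 of 18 genes, which the rule also favours, and for 8.43% of genes tested. Relative to the DMSO VM libraries, siSMARCA4 VM had a median of 19.1% over the 18 genes.

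Within DMSO the fitted V minus VM value was positive for 13 of 18 genes, with a median of 0.41, and for 9712 of all 19473 genes tested. It was called for 0 of 18 genes by edgeR, where 0.801% of all genes tested were called. DESeq2 called 2 of the 18. Before adjustment 6 of the 18 had edgeR p under 0.05, as did 2525 of all 19473 genes tested. The tag difference in siSMARCA4 minus that in DMSO was negative for 17 of 18 genes, again a description, since the siSMARCA4 libraries chose them. CLDN11, for example, was 531 CPM in V and 299.8 CPM in VM within DMSO, and 21.3 and 43.0 CPM within siSMARCA4 (difference of differences -1.77, SE 0.40, log2). Of the 29 other replication and mitosis genes, BUB1, BUB1B, TOP2A and KIF20A, 4 in all, were called lower in this difference and 0 higher, where 0.575% of genes tested were called lower. Within DMSO alone 28 of these 29 were higher in V by the fitted value, with a median of 0.36 and 0 called. The difference of differences therefore also carries the DMSO libraries. Within siSMARCA4 alone BUB1 and KIF20A were not called lower (edgeR, adjusted p 0.0584 and 0.0605). These comparisons were chosen after the data were seen, and in DMSO the V tag goes with number 2.

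The change with siSMARCA4 was also set side by side for the siRNA numbers. The rule used the mean over both, so that the count of calls is not independent of it. On the number 4 libraries alone 8 of the 18 genes would have missed the rise, USP2, FAM131C and IMPA2 among them, and on the number 2 libraries alone 0, so the choice of genes favours higher ratios in number 2. A difference by number was called for 0 of the 18 genes by edgeR, where 1.04% of all genes tested were called. DESeq2 called 1 of the 18. Before adjustment 3 of the 18 had edgeR p under 0.05, as did 3025 of all 19473 genes tested, a similar share. The 3 were USP2 (log2 difference, number 2 minus number 4, 1.62, SE 0.40), FAM131C (1.52, SE 0.61) and IMPA2 (1.36, SE 0.58). In number 2 and number 4, FAM131C was 0.241 and 0.611 CPM in siNT, and 1.43 and 1.29 CPM in siSMARCA4. The ratio of siSMARCA4 to siNT had a median of 3.47 over the 18 genes in the number 2 libraries and 2.73 in the number 4 libraries. USP2 was 5.27 and 1.72 times, GPRC5A 7.58 and 3.76 times and SLC7A14 4.44 and 13.8 times. The 13.8 for SLC7A14 rests on a siNT mean near the floor, 0.0634 CPM in number 4 (0 to 0.172 CPM) against 0.441 CPM in number 2. Its siSMARCA4 mean was lower in number 4, at 0.875 CPM, than in number 2, at 1.96 CPM. SMARCA4 itself fell by 1.58 on the log2 scale in both numbers.

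To measure the pattern in libraries that did not choose the genes, the rule was applied to 1 number and the knockdown tested in the other. Applied to the number 2 libraries it chose 56 genes, 17 of the 18 among them, TRPC4 being the exception. In the number 4 libraries 9 of the 56 rose with siSMARCA4 (edgeR, adjusted p under 0.05), where 2.93% of genes tested rose, and SNAP25 fell. The 9 were SLC7A14, CLDN11, GPRC5A, PLPPR3, NDC80, ENSG00000285218, DEPDC1B, TNFAIP8 and NUSAP1, and 51 of 56 had a positive fold change, with a median log2 value of 0.64 beside -0.03 over all genes. CLDN11 rose by 1.99 (SE 0.24, adjusted p 0.00629) and GPRC5A by 1.85 (SE 0.37, adjusted p 0.0242). The count fell to 1 without siNT 4-1VM or 4-2VM, to 2 without siNT 4-3VM and to 5 without DMSO 4-2VM, DMSO 4-3VM or siSMARCA4 4-2VM, and was 14 by DESeq2.

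Applied to the number 4 libraries the rule chose 18 genes, 10 of the described set and 8 others. In the number 2 libraries 13 of these 18 rose, where 11.6% of genes tested rose, and 0 fell, with a median log2 value of 1.46 beside 0.04 over all genes. The 13 were GPRC5A by 2.95 (SE 0.38, adjusted p 7.31e-04), CHL1 by 2.67, SLC7A14 by 2.15, TRPC4 by 1.98, CLDN11 by 1.77, NDC80 by 1.75, TNFAIP8 by 1.57, CDK1 by 1.503, ENSG00000285218 by 1.46, RASL11A by 1.45, GCNT4 by 1.28, PLPP3 by 0.84 and DCK by 0.57. The fall with 4OHT was also found in the other number, in 50 of 56 genes (21.7% of genes tested) and 17 of 18 (27.6%). There were 9 genes chosen in both numbers, 16.1% of the 56 and 50% of the 18.

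**Figure D5:**
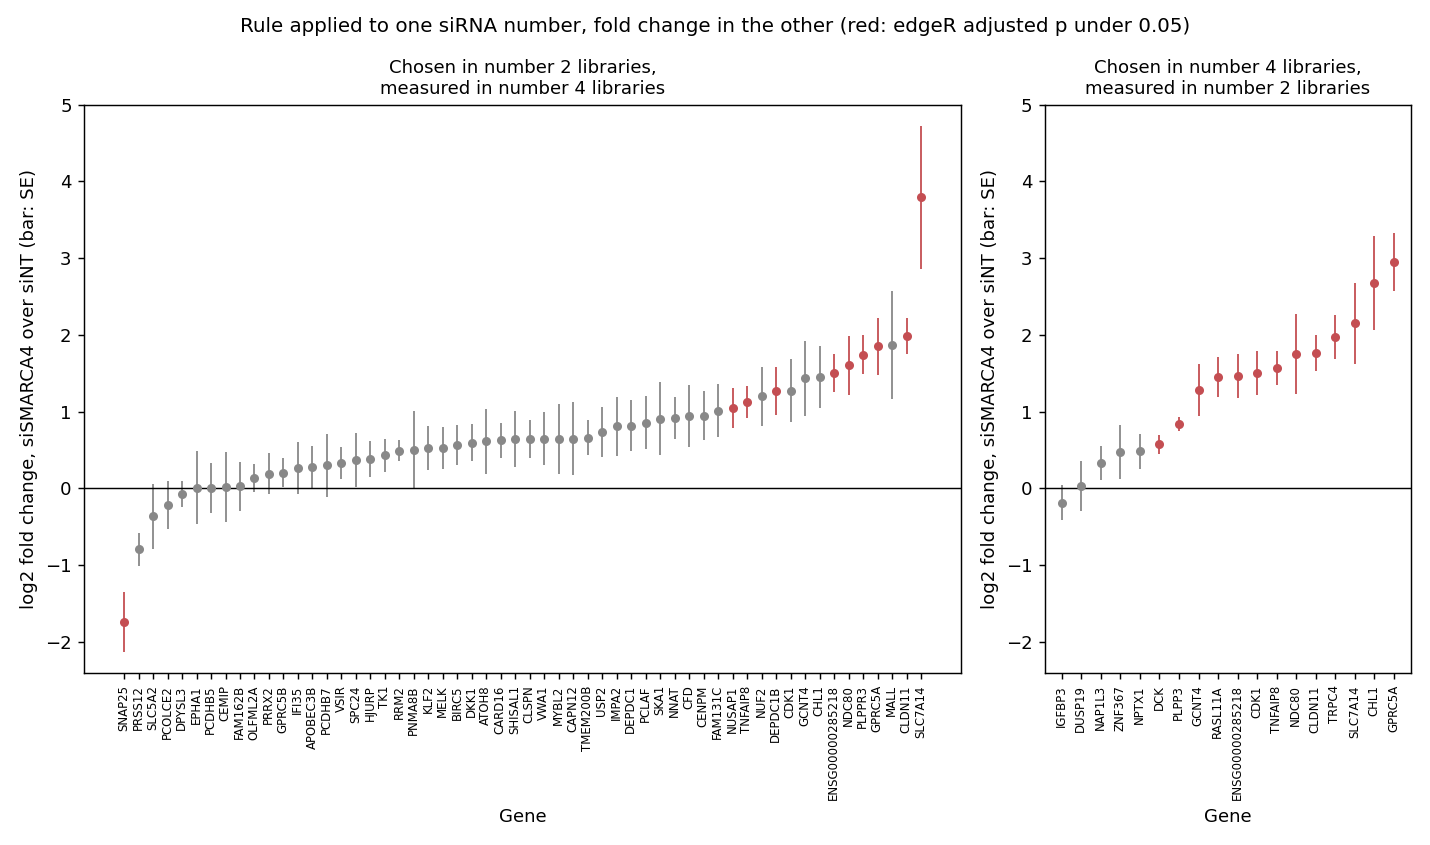
Log2 fold change of siSMARCA4 over siNT (bars are SE) in the number 4 libraries for 56 genes chosen in the number 2 libraries (left), and in the number 2 libraries for 18 genes chosen in the number 4 libraries (right). Red marks an edgeR adjusted p under 0.05: 9 higher and 1 lower on the left, and 13 higher on the right.

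The genes beside the 18 were examined for the same change. Within 100000 bases, 17 of the 18 had a nearest tested neighbour on at least 1 side, in all 25 genes. With siSMARCA4 7 of the 25 rose and 3 fell (edgeR, adjusted p under 0.05), beside 11.1% and 13.2% of all genes tested, with a median log2 value of 0.28. METTL4, 48 bases from NDC80, rose by 0.47 (SE 0.10, adjusted p 0.00241). TRIP4, 61 bases from PCLAF, rose by 0.25 (SE 0.07, adjusted p 0.0183). SKIL, a SMAD corepressor 22033 bases from CLDN11, rose by 0.50 (SE 0.15, adjusted p 0.0232) and RPL22L1 beyond the other end of ENSG00000285218 by 0.61 (SE 0.12, adjusted p 0.00186). ELOVL7, MPPE1 and the lncRNA ENSG00000289535 near GCNT4 also rose, the last by 1.54 (SE 0.41, adjusted p 0.0115). ANK3 beside CDK1 fell by 2.29 (SE 0.27, adjusted p 2.32e-05), and POSTN beside TRPC4 by 0.93 (SE 0.18, adjusted p 0.00151), as did LINC01123. CASP1, next to CARD16, had 0.41 (SE 0.17, adjusted p 0.0847). With 4OHT against DMSO 12 of the 25 fell and 8 rose, beside 27.3% and 27.2% of genes tested, and 4 of the 25 fell with 4OHT and rose with siSMARCA4, beside 4.42% of genes tested: ENSG00000289535, MPPE1, METTL4 and TRIP4. The 10 called within 100000 bases fell to 5 without siSMARCA4 2-1VM, and 3 of the 13 genes within 20000 bases were called.

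In the other 7 gene lists, which hold 192 genes, 166 were tested, and 15 (9.04%) rose and 72 (43.4%) fell with siSMARCA4, beside 11.1% and 13.2% of all genes tested. Of the elastic fibre and microfibril genes 0 rose and 14 of 21 fell, of the matricellular and basement membrane genes 0 and 10 of 16, of the proteoglycans 0 and 7 of 12, of the contractile genes 1 (CNN1) and 3 of 15, of the axon guidance genes 3 and 16 of 37, of the Wnt pathway genes 4 and 13 of 25, and of the mesenchymal transcription factors 7 and 9 of 40. With 4OHT against DMSO 2 rose and 14 fell of 21 elastic fibre genes, 0 and 7 of 12 proteoglycans, 1 and 11 of 15 contractile genes, 7 and 27 of 40 mesenchymal transcription factors, 5 and 7 of 16 matricellular genes, 9 and 11 of 25 Wnt pathway genes and 16 and 14 of 37 axon guidance genes, beside 27.2% and 27.3% of all genes tested. DCN, the proteoglycan decorin, fell from 584 CPM in DMSO to 15.5 in siNT and 9.30 in siSMARCA4 (-0.77, SE 0.16, adjusted p 0.00235 for the last step). Among listed genes that fell with 4OHT and rose with siSMARCA4 were DKK1, KLF2, KLF4, PRRX2, CNN1, GATA6 and TWIST2. GATA6 was 2.58 CPM in DMSO, 1.42 in siNT and 4.30 in siSMARCA4 (1.56, SE 0.16, adjusted p 7.53e-06). TWIST2 was 34.4, 26.6 and 35.4 CPM in the same order, so that both stood above their DMSO mean. KLF2 was 47.98 CPM in DMSO, 2.58 in siNT and 4.73 in siSMARCA4 (0.83, SE 0.20, adjusted p 0.00591). By gene family, 48 (19.2%) rose and 42 (16.8%) fell of 250 solute carriers, which include SLC7A14, beside the same 11.1% and 13.2% of all genes. Of the other families, 10 rose and 26 fell of 55 cadherins and protocadherins, 4 and 10 of 41 potassium channel genes, and 3 and 7 of 19 ADAMTS proteases.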

How the data were processed

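Directional paired-end sequencing of poly(A) RNA from 17 IMR90 ER:RAS libraries was used, grouped by the labels alone. For each library the authors deposited expected counts, estimated read-pair counts per gene and repeat written as whole numbers and not normalised. Per the study's methods and the submitters' processing notes, reads were trimmed with Cutadapt 4.7, aligned to GRCh38 with HISAT2 2.2.1 and counted by strand with TElocal, which shares multi-mapped pairs, on Ensembl release 100 genes. Symbols, biotypes and positions were taken from GENCODE 44 on the same build, a later annotation, in which 62700 of 62754 genes matched.

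CPM were scaled to the sum of gene counts, and these sums ranged from 38.6 to 67.8 M (1000000) per library. Genes kept by filterByExpr (minimum count 10, minimum total 15) were scaled by TMM and fitted over all libraries, or over those of 1 siRNA number, with edgeR 4.0.16 quasi-likelihood (R 4.3.3), with a term per group, per group and siRNA number, or per group and tag, and Benjamini-Hochberg adjustment over all genes tested, a call being an adjusted p under 0.05. DESeq2 1.42.0 was an alternative. The steps were checked on simulated counts, where 91 of 95 genes changed 4-fold were recovered for siSMARCA4 against siNT, 59 of 98 for the siRNA number difference and 85 of 98 for the tag difference. Repeats were not used here. Promoter windows came from RefSeq and were searched on both strands for the motifs spelled out with the results, each window counting once per motif. Figures used Python 3.11.15 with matplotlib 3.10.9.

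The genes, the 8 gene lists, 4 families and 5 marker lists were chosen with earlier results of these data known. The rule for named genes took the 10 of the set highest in DMSO level, in rise, in percent of DMSO and in evidence for a siRNA number difference, the 3 genes on each side of each threshold, SMARCA4, and list genes called. All of the set is named here. Which called genes of the other lists, which markers and which neighbours are named was decided after their values were seen.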

Additional observations from a re-analysis of the deposited data

Results flagged for a closer look

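PCLAF in the 4OHT siNT library 4-3VM was at 0.588 CPM, apart from the other 5 siNT libraries at 0.366 to 0.423 CPM. It was the only value that stood apart among 54 groups of libraries examined, where chance alone sets apart about 1 in 20, and its cause was not tested.

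For 7 genes the V minus VM difference in siSMARCA4 was flagged by edgeR as below that in DMSO (log2 values), and for 0 without DMSO 2-1V. The siSMARCA4 libraries also chose the genes, 5 of the 7 through VM alone, so the flag is no test of them and no p is given. The share of 0.575% over all genes tested cannot be compared with that of genes chosen in this way. The values are descriptions: SLC7A14 by -3.13, GPRC5A by -2.35, GCNT4 by -2.20, ENSG00000285218 by -1.81, CLDN11 by -1.77, PCLAF by -1.36 and TNFAIP8 by -1.15. The same difference for SMARCA4 was 0.76 (adjusted p 0.0505). The 2 V libraries of DMSO both had siRNA number 2, and the part of the number in these values was not tested.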

How the results depend on the processing

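The set of 18 depended on its limits. It held 42 genes with siNT at up to 0.5 of DMSO, 78 and 5 with a rise of 1.5 and 3 times, 10 with 5 CPM in DMSO, 4 with an offset of 0.5 CPM, 55 in VM libraries and 56 in number 2 libraries, and 14 (without siSMARCA4 2-1VM) to 32 (without 4-2V) with 1 library left out. With CPM scaled by TMM the set held 15 genes, without CARD16, DEPDC1 and TRPC4. The VM libraries alone also left out TRPC4. The neighbours called, 10, were 3 within 20000 bases and 5 to 12 with 1 library left out. The siRNA number difference, called for 0 genes, was 1 by DESeq2, 2 with no filter on low counts and 0 to 1 with 1 library left out. Counts by tag are no test of the 18 genes, since these libraries chose them, and show only how far calls depend on the processing. Over all genes tested 1.42% were called lower in V within siSMARCA4, a share that cannot be compared with these counts. V against VM in siSMARCA4 gave 9 genes, 12 with no filter, 10 by DESeq2 and 0 (without siSMARCA4 4-2V or 4-3V) to 10 with 1 library left out. Within DMSO it was 2 by DESeq2 and 4 with no filter, and the difference between both, 7 genes, was 12 with no filter and 0 to 8 with 1 library left out. These last 2 comparisons were added after the data were seen. For genes chosen in number 2, the 9 called in number 4 were 14 by DESeq2, 22 with no filter and 1 to 13 with 1 library left out. Same-numbered libraries of siNT and siSMARCA4 correlated at -0.133 to 0.332, and 0 of 3 pairs correlated best with each other. So few pairs cannot decide whether the labels pair the libraries. With a replicate block the listed genes called went from 96 to 80, the neighbours from 10 to 8 and the number difference stayed at 0. The causes were not tested. Genes with few counts, such as MALL with 10 counts over the siNT libraries, limit the precision.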
